A study of Arabidopsis thaliana with 9 samples.

Results

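The long noncoding RNA (lncRNA) genes that were expressed in callus of Arabidopsis thaliana were examined in a mutant and an overexpression line of PNET1. A gene belonged to the set when the deposited gene table gave it the biotype lncRNA and at least 50 counts in at least 3 of the 9 libraries, leaving out AT3G09922. The rule found 58 of the 3481 lncRNA rows, in a table of 32833 genes. Of the 3481 rows, 2222 had no count in any library and 219 passed the low-count filter of the test, as all 58 did. For comparison, 16917 of 27628 protein-coding rows and 70 of 299 rows of the biotype ncRNA reached the same minimum.

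The 9 libraries came in 3 genotypes of 3 each, the pnet1 mutant, the line that overexpresses PNET1 (OE) and wild type (WT). The labels give ecotype Col-0 and the same treatment for every library, with hypocotyl pieces of seedlings raised in the dark kept for 4 days on callus induction medium and 10 days on shoot induction medium. Callus is a mass of dividing plant cells, and the second medium starts shoot formation in it. The promoter of the overexpression construct, the nature of the pnet1 lesion and the number of independent lines were not stated in what was used here. Nothing says whether libraries of a genotype came from separate cultures, so each p-value measures only how these libraries spread, which may be technical. PNET1, which encodes a protein of the nuclear envelope membrane, was read as AT1G07970, a match from background knowledge. That gene had 27, 19 and 25 counts in pnet1 libraries, 82787, 85817 and 96701 in OE libraries, and 630, 524 and 544 in WT libraries. Library totals ran from 16890848 to 19493969 counts.

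An lncRNA is a long transcript with no long reading frame. In plants such RNAs lie between genes, run opposite to a gene on the other strand or sit in an intron, and a few of them are known to hold microRNAs away from their targets, to be cut into small RNAs or to act on chromatin at a flowering gene. Most have no known role, and no one of the 58 genes carried a symbol in the table or the reference, so they are given by identifier with no role. AT2G24592 and AT2G23040 are described in the table as unknown protein, although their biotype is lncRNA. Their longest reading frames from an ATG to a stop codon had 49 and 72 codons.

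The sequences of 3 of the genes are shown because the results turn on them. They were read from the RefSeq genome TAIR10.1. Of the 32548 nuclear genes of the table, 32532 had the same chromosome, start, end and strand in its annotation. AT1G06957 is the gene with the largest change in pnet1. It lies at chr1:13477922-13478204 on the plus strand, with its 2 exons of 135 and 78 bases in capitals and the intron in lower case.
AT1G06957 locus: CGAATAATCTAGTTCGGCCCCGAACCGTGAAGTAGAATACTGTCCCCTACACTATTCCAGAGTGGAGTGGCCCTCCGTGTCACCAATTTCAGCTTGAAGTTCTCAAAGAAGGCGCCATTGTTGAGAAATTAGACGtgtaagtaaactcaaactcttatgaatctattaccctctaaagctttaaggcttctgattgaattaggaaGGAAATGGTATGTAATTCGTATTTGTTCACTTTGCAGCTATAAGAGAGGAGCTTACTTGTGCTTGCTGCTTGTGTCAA
The first exon has a close copy in the first exon of AT5G38840, a protein-coding gene on chromosome 5. In the next pair the capitals mark the 6 of 135 bases that differ, which are A3G, T8A, T10C, G17T, T33C and A39C, counted from 1 at the 5′ end of the exon with the base of AT1G06957 first. The exon spans chr1:13477922-13478056 and the copy spans chr5:15551549-15551683, both on the plus strand.
AT1G06957 first exon: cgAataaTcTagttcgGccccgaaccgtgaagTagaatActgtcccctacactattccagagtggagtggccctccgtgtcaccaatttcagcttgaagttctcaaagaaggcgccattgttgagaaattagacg
copy in AT5G38840: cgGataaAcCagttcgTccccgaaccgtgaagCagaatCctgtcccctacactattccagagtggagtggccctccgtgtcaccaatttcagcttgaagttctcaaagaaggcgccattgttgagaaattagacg
AT3G02705 is the other gene that was lower in pnet1. It is a single exon of 245 bases at chr3:4372837-4373081 on the minus strand, and the capitals mark its longest frame from an ATG to a stop codon, 81 bases.
AT3G02705: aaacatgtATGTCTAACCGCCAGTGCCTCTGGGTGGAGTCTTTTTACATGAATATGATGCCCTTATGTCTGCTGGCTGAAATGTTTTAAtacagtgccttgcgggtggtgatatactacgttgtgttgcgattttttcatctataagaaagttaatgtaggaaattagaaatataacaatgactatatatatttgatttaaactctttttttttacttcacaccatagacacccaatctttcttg
AT3G06355 was the most abundant of the 58 genes. It lies at chr3:14199575-14200076 on the plus strand and spans the ribosomal RNA gene AT3G41979, whose 164 bases are in capitals in the stretch chr3:14199693-14199976.
AT3G06355 around AT3G41979: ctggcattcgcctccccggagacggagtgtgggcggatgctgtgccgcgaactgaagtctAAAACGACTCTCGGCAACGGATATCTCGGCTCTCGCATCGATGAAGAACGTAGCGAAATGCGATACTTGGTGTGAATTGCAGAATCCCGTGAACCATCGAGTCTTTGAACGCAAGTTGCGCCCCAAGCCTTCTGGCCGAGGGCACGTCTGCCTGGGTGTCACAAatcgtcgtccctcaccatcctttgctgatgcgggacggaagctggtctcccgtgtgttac

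The 58 genes were expressed at a low level. Their FPKM, the deposited count per length and library, averaged over the 9 libraries had a median of 4.34, against 11.0 for the 19245 protein-coding genes tested, and ran from 0.588 in AT2G42365 to 117 in AT3G06355. Of the 58, 15 lay above the protein-coding median. The genes were chosen by their counts, so these levels are a description. Together the 58 genes held 0.0517% to 0.0541% of the counts in pnet1 libraries, 0.0499% to 0.0526% in OE libraries and 0.0477% to 0.0492% in WT libraries, and AT3G06355 alone held 11.6% of their counts. With AT3G06355 included, the ranges of pnet1 and of OE lay above that of WT. That gene was itself highest in OE and its value is uncertain, as given below, so the ranges do not show a rise of the set in OE. The coefficient of variation of CPM, the count scaled to TMM-adjusted library size, within a genotype had a median of 10.6% in pnet1, 9.39% in OE and 11.6% in WT.

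**Figure D1:**
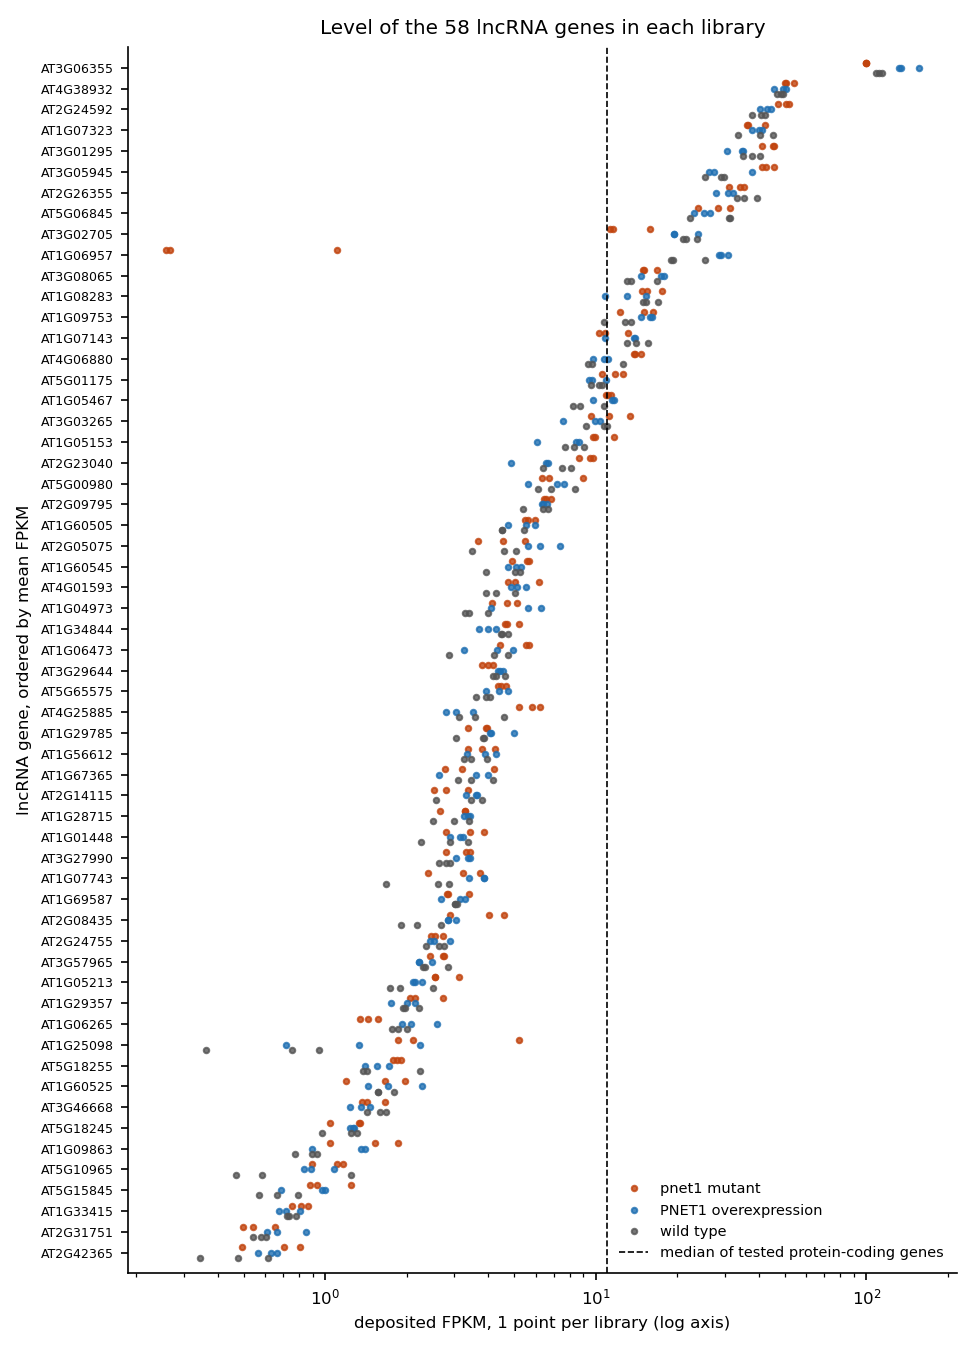
Deposited FPKM (log axis) of each of the 58 lncRNA genes in each of the 9 libraries, with genes ordered by their mean and colours for the pnet1 mutant, the overexpression line and wild type. AT3G06355 stood above the rest with a mean of 117 FPKM, and the pnet1 points of AT1G06957 lie far to the left of its OE and WT points.

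After AT3G06355 the highest mean FPKM values were 49.3 for AT4G38932, 44.2 for AT2G24592, 39.2 for AT1G07323, 38.3 for AT3G01295, 33.9 for AT3G05945 and 33.3 for AT2G26355. AT5G06845 had 27.0 FPKM, AT3G02705 18.6 and AT1G06957 17.0. Each of the 10 highest is a gene of 1 or 2 exons under 1 kb long. When only bases free of exons of other genes were counted as length, the same 10 genes were the highest. Neighbours in this order overlapped: AT1G07323 had 38.3 ± 3.45 FPKM in pnet1, 39.7 ± 1.69 in OE and 39.7 ± 5.8 in WT (SD, n = 3 each), and AT3G01295 had 43.9 ± 2.54, 33.4 ± 2.49 and 37.7 ± 2.75 in the same order of genotypes.

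Near the count minimum, AT2G14115 and AT1G07743 entered with a third-highest count of 53 and AT1G05153 with 50. AT1G27921 and AT4G05685 stayed out with 49 and AT5G05435 with 48. Of the 58 genes, 38 reached 50 counts in all 9 libraries. AT1G05153 reached it in the pnet1 libraries and in no other (50, 57 and 51 counts in pnet1, 45, 42 and 32 in OE, 46, 37 and 49 in WT). AT1G06957 reached it in OE and WT libraries and in no pnet1 library. AT1G25098 and AT1G09863 reached it in pnet1 and OE libraries and in no WT library, as AT1G07743 did. AT4G25885 reached it in 3 pnet1 libraries, 1 OE library and 1 WT library, so it entered through pnet1. The entry rule can thus favour a difference for such genes, and counts over the 58 are given beside those over all genes tested and support nothing by themselves.

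Most of the genes lay close to other genes or overlapped them, and by median length they were shorter than protein-coding genes and longer than other lncRNA rows. The median length was 1359 bases, against 1789 for tested protein-coding genes and 324 for the 3423 other lncRNA rows. The median GC content was 38.3%, against 38.8% for tested protein-coding genes. Of the 58, 30 had a single exon. By the deposited coordinates, 33 overlapped a gene on the other strand, 2 overlapped a gene on the same strand only, 17 had no overlap but a gene within 1000 bases, and 6 had none so near. Those 6 were AT1G06957, AT1G07323, AT2G09795, AT2G24755, AT3G05945 and AT3G29644. The share of all genes in these classes was not counted, so the counts do not set the 58 apart.

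The overlaps limit what the counts can show. The labels call the libraries strand-specific, and the strand setting of the counting was not stated in what was used here. Of 325 protein-coding genes whose every exonic base is also covered by exons of a gene on the other strand, 321 had no count and 0 had a mean of at least 10 counts, against 66.7% of 19941 protein-coding genes that share no exonic base. Of 516 lncRNA genes of that kind, 515 had no count and 0 had a mean of at least 10. The counts behave as if made without strand, and the strand of the reads in an lncRNA gene cannot be told from these counts. Of the 58 genes, 24 shared no exonic base with another gene, 8 shared more than they kept, and AT3G46668 kept the least with 20.2% of its exonic bases free.

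Overlapping partners fell into 3 kinds. In 6 cases the lncRNA gene lay wholly inside a longer gene on the other strand, and all its free bases were in introns of that gene. In 28 pairs a gene on the other strand lay inside the lncRNA gene; 17 of these were protein-coding genes inside 16 lncRNA genes, and each of the 17 had a mean under 1 count. They included CLE45, which encodes a CLE signalling peptide, MYR1, which encodes a MYB-related transcription factor, and COL1, a relative of CONSTANS. Genes covered by exons on the other strand had almost no counts, as given above, so these means do not show whether the 17 genes were silent. AT1G28715 held 11 transfer RNA genes, none with a mean above 3.56 counts. In 16 pairs the ends overlapped.

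In pnet1 mutant callus the largest change was in AT1G06957, which was nearly without counts, and 11 further lncRNA genes changed, 10 of them upward and by less. AT1G06957 had 1, 4 and 1 counts in pnet1 libraries, 111, 114 and 114 in OE libraries, and 80, 68 and 102 in WT libraries. No pnet1 library came near the lowest WT library. The log2 fold change of pnet1 over WT was -5.24 (SE 0.34, edgeR quasi-likelihood adjusted p = 4.7e-08). AT1G06957 entered the set through its OE and WT libraries, where it was high, so the entry rule can favour this fall. In pooled counts scaled to library totals, the ratio of WT over pnet1 was 39.4, with an exact 95% interval of 17.9 to 108 that covers counting error only. The log2 fold change lay between -6.18 and -4.91 when 1 library at a time was left out.

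Around AT1G06957 little else was counted. The nearest gene upstream, AT1G06953, began 6654 bases away and had a mean of 0.333 counts, and AT1G36078, 3460 bases downstream, had no count. The match to chromosome 5 reaches past the first exon, with 305 bases from chr1:13477882 to chr1:13478186 aligned at 93.1% identity to chr5:15551509-15551807, past the end of the first exon of AT5G38840. AT5G38840, which the table describes as kanadaptin-like, had 629, 685 and 634 counts in pnet1 libraries and 707, 570 and 726 in WT libraries, a log2 fold change of 0.02 (adjusted p = 0.858). The libraries of pnet1 and WT overlapped for AT5G38840 and did not for AT1G06957.

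Over all 58 genes, 12 were called in pnet1 against WT at an adjusted p under 0.05, 10 higher and 2 lower. That is 20.7% of the genes, against 30.0% of all 19698 genes tested and 29.0% of the 12915 other genes whose mean count lay between 45 and 1061, the range of the 58. That range does not match the 58 on counts, since their median was 93.8, and it holds better measured genes, with a median SE of 0.09. Called higher were 17.2% of the 58 and 12.6% of all genes, and called lower were 3.45% and 17.4%. The libraries of pnet1 and WT did not overlap for 21 of the 58 genes, 36.2%, against 45.3% of all genes and 44.3% of those in the count range. The median log2 fold change was 0.12 over the 58 and 0.00 over all genes, and the median SE was 0.15 against 0.09. At an unadjusted p under 0.05 there were 17 of the 58, against 7870 of all 19698 genes.

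**Figure D2:**
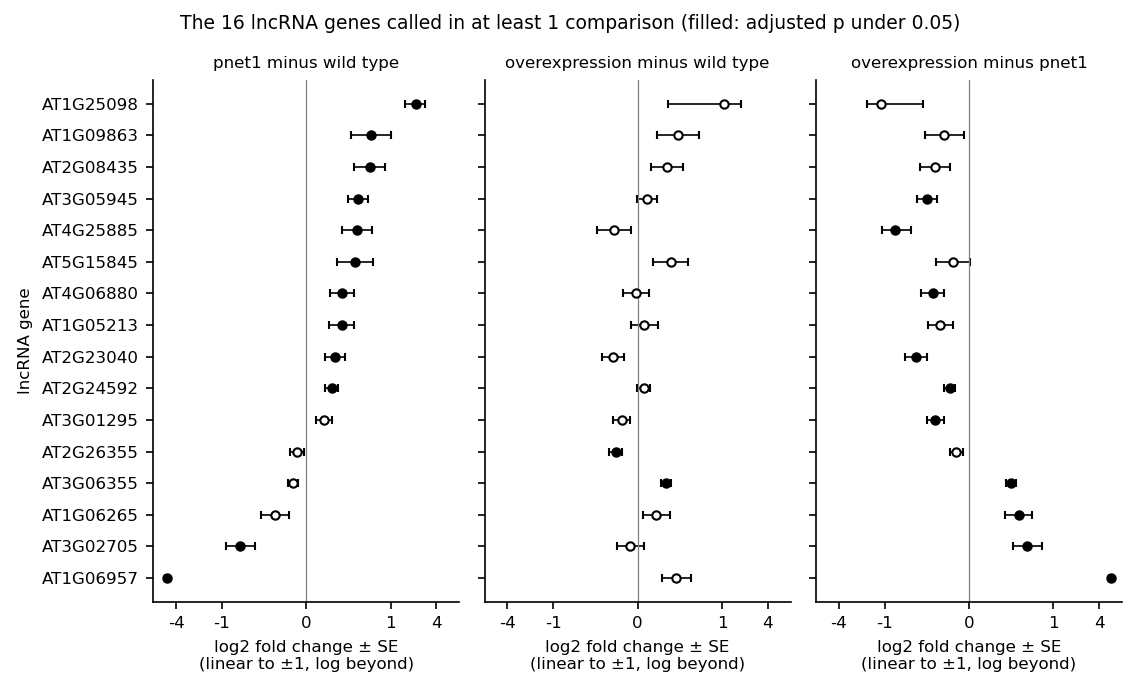
Log2 fold change ± SE of the 16 lncRNA genes called in at least 1 of 3 comparisons, on an axis that is linear to ±1 and logarithmic beyond; filled points have an edgeR adjusted p under 0.05. In pnet1 minus wild type 10 filled points lie to the right and 2 to the left, with AT1G06957 at -5.24, and in overexpression minus wild type 2 points are filled.

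AT3G02705 was the second gene that fell in pnet1. It had 68, 47 and 52 counts in pnet1 libraries, 87, 102 and 88 in OE libraries, and 100, 89 and 110 in WT libraries. All pnet1 values lay below all WT values, and OE and WT overlapped. The log2 fold change in pnet1 was -0.78 (SE 0.17, adjusted p = 0.0017). The nearest gene, AT3G13432, 610 bases downstream on the other strand, had a mean of 26.7 counts and a log2 fold change of -0.10 (adjusted p = 0.842).

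AT3G05945 rose in pnet1. It is a single exon of 421 bases at chr3:11510090-11510510 on the minus strand. It had 336, 306 and 318 counts in pnet1 libraries, 289, 201 and 205 in OE libraries, and 243, 180 and 232 in WT libraries. In CPM this was 18.2 ± 0.862 in pnet1 and 11.9 ± 0.989 in WT (SD, n = 3 each), with no overlap, and a log2 fold change of 0.61 (SE 0.12, adjusted p = 0.0011). No gene lay within 1000 bases, and its nearest neighbour downstream on the same strand, 8665 bases away, was AT3G29644, another of the 58, with a log2 fold change of -0.13 (adjusted p = 0.446). Upstream on the other strand, 17245 bases away, lay PMAT2, a malonyltransferase gene, with 0.65 in pnet1 (adjusted p = 6.7e-05) and -0.96 in OE (adjusted p = 9.5e-05), beside 0.11 in OE for AT3G05945 (adjusted p = 0.634).

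AT2G08435 rose as well. It lies at chr2:13383986-13385739 on the plus strand, inside AT2G31390, which the table describes as a probable fructokinase. It had 104, 114 and 78 counts in pnet1 libraries, 81, 73 and 77 in OE libraries, and 76, 47 and 61 in WT libraries. The lowest pnet1 library stood just above the highest WT library, and the log2 fold change was 0.75 (SE 0.18, adjusted p = 0.0042). AT2G31390 itself had a mean of 5930 counts and rose by 0.19 on the log2 scale (adjusted p = 0.0045).

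AT2G24592, at chr2:10451325-10451807 on the plus strand, had 427, 388 and 456 counts in pnet1 libraries, 390, 363 and 361 in OE libraries, and 395, 308 and 374 in WT libraries. Scaled for depth, pnet1 libraries held 22.9 to 25 CPM and WT libraries 18.4 to 20.5 CPM, without overlap, and the log2 fold change was 0.30 (SE 0.08, adjusted p = 0.0056). It starts 140 bases downstream of RSZ22A, on the same strand, a gene for a serine/arginine-rich splicing factor, which rose by 0.19 on the log2 scale (adjusted p = 0.0034). With AT1G06957, AT3G02705, AT3G05945 and AT2G08435 it makes 5 genes that were called in pnet1 under all 22 alternative settings, left-out libraries included.

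**Figure D3:**
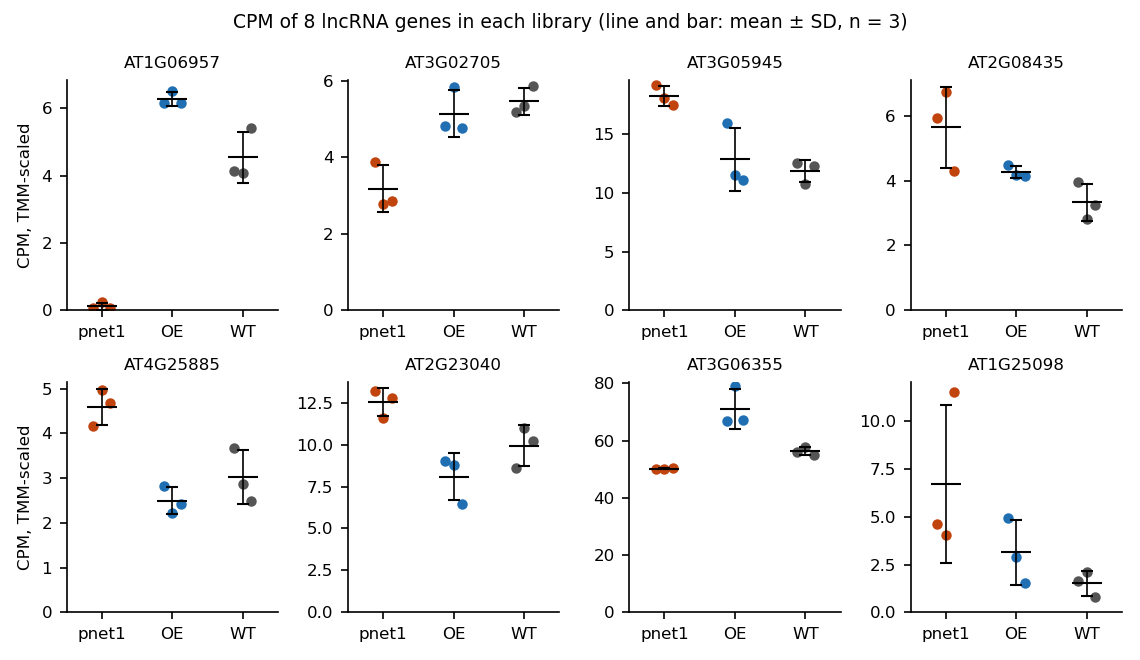
CPM with TMM scaling of 8 lncRNA genes in the libraries of the pnet1 mutant, the overexpression line (OE) and wild type (WT), 1 point per library with mean and SD (n = 3). AT1G06957 is near 0 in pnet1, AT3G06355 is highest in OE, and a single pnet1 library of AT1G25098, at 11.5 CPM, stands far above the others.

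Each of the other 7 genes called higher in pnet1 lost its call when some library was left out. AT4G25885 had 73, 84 and 85 counts in pnet1 libraries, 51, 39 and 45 in OE libraries, and 71, 48 and 47 in WT libraries, a log2 fold change of 0.60 (SE 0.18, adjusted p = 0.017). This gene entered the set through its pnet1 libraries, where it was high, so the entry rule can favour its rise. It lies inside APUM6, a gene for a Pumilio RNA-binding protein, with the 61.4% of its exonic bases that are free of other exons in APUM6 introns. APUM6 rose by 0.26 (adjusted p = 0.00028). The adjusted p of AT4G25885 was 0.066 without pnet1 replicate 2, 0.051 without pnet1 replicate 3, 0.058 without WT replicate 2 and 0.077 without WT replicate 3. AT1G09863, which entered through pnet1 and OE libraries, had 76, 41 and 65 counts in pnet1 and 42, 35 and 34 in WT, a log2 fold change of 0.77 (SE 0.24, adjusted p = 0.022). It has 46.4% of its exonic bases free and overlaps AT1G79510 on the other strand. Its adjusted p was 0.135 without pnet1 replicate 1, 0.063 without pnet1 replicate 3 and 0.064 without WT replicate 3, and 0.067 to 0.082 under the 3 limma settings on FPKM.

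AT2G23040, AT1G05213, AT4G06880 and AT5G15845 lost the call in pnet1 without any of 4 to 6 of the 9 libraries. AT2G23040 had 231, 197 and 233 counts in pnet1 libraries, 163, 153 and 120 in OE libraries, and 166, 183 and 191 in WT libraries, a log2 fold change of 0.34 (adjusted p = 0.045). The call was lost without pnet1 replicate 1, 2 or 3, OE replicate 2, or WT replicate 1 or 3, with adjusted p from 0.050 to 0.187. It was also lost under the replicate block (adjusted p = 0.065), DESeq2 (adjusted p = 0.068) and 3 limma settings on FPKM (adjusted p = 0.062 to 0.093). AT1G05213, which lies inside CCR1, a gene of lignin synthesis, and has 55.1% of its exonic bases free, had a log2 fold change of 0.42 (adjusted p = 0.047), and 0.31 (adjusted p = 0.198) without pnet1 replicate 2. Its call was also lost without pnet1 replicate 1 or 3, OE replicate 2, or WT replicate 1 or 2, under the replicate block (adjusted p = 0.056), DESeq2 (adjusted p = 0.081) and the 3 limma settings on FPKM (adjusted p = 0.073 to 0.092). AT4G06880 lies 406 bases from MIR168A, the gene of a microRNA that targets AGO1. It had a log2 fold change of 0.42 (adjusted p = 0.033), and 0.34 (adjusted p = 0.129) without WT replicate 2, with the call also lost without pnet1 replicate 1, 2 or 3 or WT replicate 1 and under DESeq2 (adjusted p = 0.068). AT5G15845 had a log2 fold change of 0.58 (adjusted p = 0.045), and 0.42 (adjusted p = 0.217) without pnet1 replicate 1. The call was also lost without pnet1 replicate 2 or WT replicate 1 or 2. It was lost as well under the length and GC offset, DESeq2, limma-voom and the 3 limma settings on FPKM (adjusted p = 0.054 to 0.140). AT5G15845 has 48.8% of its exonic bases free, and its ends overlap ICME and CO on the other strand. In pnet1 ICME had 0.20 (edgeR adjusted p = 0.056) and CO -0.04 (edgeR adjusted p = 0.893).

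AT1G25098 had the largest rise and is uncertain, and it entered the set through its pnet1 and OE libraries. It had 81, 69 and 209 counts in pnet1 libraries, 89, 51 and 29 in OE libraries, and 32, 35 and 15 in WT libraries, a log2 fold change of 2.17 (SE 0.64, adjusted p = 0.042). The value without pnet1 replicate 3 was 1.53 (adjusted p = 0.047). The call was lost without pnet1 replicate 1 (adjusted p = 0.051), OE replicate 2 (adjusted p = 0.070) or WT replicate 1, 2 or 3 (adjusted p = 0.108, 0.084 and 0.121). It was also lost under the replicate block (adjusted p = 0.105), no low-count filter (adjusted p = 0.064), only the 2 groups compared (adjusted p = 0.061) and limma-voom (adjusted p = 0.076). Stretches of 1270 and 531 bases of its exons occur at 100% identity in 3 other places on chromosome 1, at AT1G24822, AT1G24996 and AT1G25175 among others, so the counting could split its reads. AT1G24996 had a log2 fold change of 0.23 (adjusted p = 0.410).

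Cell-type markers moved with the pnet1 comparison, in which 12.6% of all genes tested were called higher and 17.4% lower. The markers were listed with earlier results of these data known, so their direction is no independent evidence. Of the genes that mark photosynthetic cells, 6 of 6 tested were called lower, and their summed level was 960 to 1050 CPM in pnet1, 2580 to 3620 in OE and 1980 to 2580 in WT. Of the epidermis and stomata markers, 5 of 5 were called lower, with 59.4 to 79.2 CPM in pnet1, 190 to 298 in OE and 146 to 206 in WT. Of the phloem markers, 3 of 3 were called higher, with 285 to 318 CPM in pnet1, 175 to 216 in OE and 173 to 209 in WT. Of the callus and shoot regeneration markers tested, 3 of 8 were higher and 1 lower, and of the root endodermis markers 1 was tested and was lower. No photosynthetic, epidermal or phloem marker was without counts in any genotype. In bulk tissue, fewer cells of a type and less RNA per cell cannot be told apart, and the part of cell makeup in the changes of the lncRNA genes was not tested.

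In the overexpression line 2 of the 58 genes were called against WT, AT3G06355 higher and AT2G26355 lower. That is 3.45%, against 11.2% of all genes tested; called higher were 1.72% of the 58 and 5.97% of all genes, and called lower were 1.72% and 5.24%. Of the other genes in the count range 10.8% were called, 7.00% higher and 3.80% lower. The libraries did not overlap for 12 of the 58 genes, 20.7%, against 28.4% of all genes. At an unadjusted p under 0.05 there were 10 of the 58, against 5215 of all 19698 genes, and the median log2 fold change of the 58 was 0.08.

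AT3G06355 had 878, 849 and 916 counts in pnet1 libraries, 1205, 1379 and 1245 in OE libraries, and 1078, 964 and 1035 in WT libraries. In CPM this was 50.2 ± 0.123 in pnet1, 71.0 ± 6.90 in OE and 56.2 ± 1.37 in WT (SD, n = 3 each), and the 3 genotypes did not overlap. The log2 fold change of OE over WT was 0.34 (SE 0.06, adjusted p = 0.0026) and stayed between 0.25 and 0.40 when 1 library was left out. For pnet1 over WT it was -0.16 (adjusted p = 0.051), and the gene was called lower in pnet1 under 6 of the 22 alternatives, which were no low-count filter, the replicate block, only the 2 groups compared, and leaving out OE replicate 1, 2 or 3.

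The sequence of AT3G06355 is that of ribosomal DNA. It starts 90 bases downstream of AT3G41768, annotated as rRNA, and contains AT3G41979, the rRNA gene printed in capitals above. A stretch of 501 bases at chr2:5604-6104, around the rRNA gene AT2G01020, is 99.4% identical, and the 164 bases of AT3G41979 and AT2G01020 do not differ at any base. All bases of AT3G41979 lie within the exon of AT3G06355, so its lack of counts in every library gives no sign of its level. With a copy this close, reads of this unit could be split among copies, and the value of AT3G06355 is uncertain as that of 1 locus. AT3G41768 had 8796, 10818 and 6628 counts in OE libraries, 7485, 5772 and 14241 in pnet1 libraries, and 30933, 22376 and 21660 in WT libraries. It was thus highest in WT, with a log2 fold change of -1.48 in OE (adjusted p = 0.053) and -1.40 in pnet1 (adjusted p = 0.030), while AT3G06355 was highest in OE. Whether a share of ribosomal RNA in the libraries takes part in the change of AT3G06355 was not tested.

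AT2G26355 had 421, 465 and 471 counts in OE libraries and 568, 465 and 617 in WT libraries, a log2 fold change of -0.26 (SE 0.08, adjusted p = 0.040). The call was lost without pnet1 replicate 1, OE replicate 1, 2 or 3, or WT replicate 1 or 3, with adjusted p up to 0.210 (without WT replicate 3, log2 fold change -0.19), and under 9 other alternatives (adjusted p = 0.051 to 0.1). Its end overlaps AT2G26360, a mitochondrial carrier gene on the other strand, which fell by 0.35 on the log2 scale (adjusted p = 0.018). AT1G06957 had 0.46 (SE 0.17, adjusted p = 0.088) in OE over WT, and all OE values lay above all WT values.

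Between the overexpression line and the mutant, 10 of the 58 genes were called, 4 higher and 6 lower in OE. That is 17.2%, against 43.5% of all genes; called higher were 6.90% of the 58 and 23.0% of all genes, and called lower were 10.3% and 20.6%. Of the other genes in the count range 41.8% were called, 23.2% higher and 18.6% lower. The libraries did not overlap for 17 of the 58, 29.3%, against 53.5%. This comparison shares the pnet1 libraries with pnet1 against WT and the OE libraries with OE against WT, so its calls are not independent of theirs, and 7 of the 10 genes were also among the 12 of pnet1 against WT. Higher in OE were AT1G06957 (5.70, SE 0.33, adjusted p = 2.3e-09), AT3G02705 (0.69, SE 0.17, adjusted p = 0.0026), AT1G06265 (0.59, SE 0.16, adjusted p = 0.0063) and AT3G06355 (0.50, SE 0.06, adjusted p = 2.8e-06), all as log2 fold changes. Of these, AT1G06957 entered the set through its OE and WT libraries.

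Lower in OE than in pnet1 were AT4G25885, AT2G23040, AT3G05945, AT4G06880, AT3G01295 and AT2G24592. AT4G25885 had the largest fall, with 2.5 ± 0.304 CPM in OE and 4.6 ± 0.403 CPM in pnet1 (SD, n = 3 each), a log2 fold change of -0.88 (adjusted p = 0.00088). Since it entered the set through its pnet1 libraries, the entry rule can favour this fall. AT2G23040 fell by 0.63 on the log2 scale (adjusted p = 0.00053), with 9.04, 8.76 and 6.47 CPM in OE libraries and 13.2, 11.6 and 12.8 CPM in pnet1 libraries. AT3G01295 fell by 0.40 (adjusted p = 0.0023), with 10.7 to 12.4 CPM in OE and 14.4 to 16.1 CPM in pnet1, and in neither line was it called against WT (0.21 in pnet1, adjusted p = 0.098, and -0.19 in OE, adjusted p = 0.235). AT4G06880 lost its call without pnet1 replicate 3 (-0.40, adjusted p = 0.064) or OE replicate 2 (-0.38, adjusted p = 0.076), and AT2G24592, at -0.23, without pnet1 replicate 1 (adjusted p = 0.056), pnet1 replicate 3 (adjusted p = 0.084) or OE replicate 3 (adjusted p = 0.087), with DESeq2 (adjusted p = 0.061) or with the length and GC offset (adjusted p = 0.066). The other 8 kept theirs under all 22 alternatives.

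In 42 of the 58 genes no comparison gave a call. Among those with at least 200 counts in every library, AT4G38932, AT1G07323 and AT2G24755 had the smallest log2 fold changes against WT. All pnet1 values of AT4G38932 nevertheless lay above all its WT values, and AT2G24755 was called in OE against pnet1 when an offset on gene length and GC content was used. AT4G38932, a single exon of 771 bases on chromosome 4, had 39.9 ± 1.70 CPM in pnet1, 37.4 ± 2.21 in OE and 37.4 ± 0.804 in WT (SD, n = 3 each). Its description calls it a potential natural antisense gene that overlaps AT4G38930. By the deposited coordinates AT4G38930 lies 33 bases downstream on the other strand, and AT4G38940 lies 94 bases upstream on that strand. AT2G24755, whose exons sum to 7249 bases, the most among the 58, had 18.8 ± 1.06 CPM in pnet1, 19.0 ± 1.73 in OE and 18.8 ± 1.45 in WT. Their changes against WT were at most 0.09 on the log2 scale, with an SE of 0.06 for AT4G38932, 0.10 for AT1G07323 and 0.09 for AT2G24755. In 2 genes, AT3G06355 and AT1G06957, the libraries of pnet1, WT and OE followed each other upward without overlap, and in 0 genes downward. The share of all genes tested with such an order was not counted, so these counts say nothing about the set.

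Calls in pnet1 are given by positional class, against 12.6% higher and 17.4% lower over all genes tested. Of the 33 genes that overlap the other strand, 6 were called higher and 0 lower. Of the 17 with a near neighbour, 3 were higher and 1 lower, and of the 6 with none near, 1 was higher (AT3G05945) and 1 lower (AT1G06957). The 6 genes inside an intron-bearing host on the other strand were AT1G05213 in CCR1, AT3G03265 in TIP2-1, which encodes a tonoplast aquaporin, AT2G08435 in AT2G31390, AT1G05467 in AT1G19130, AT4G25885 in APUM6 and AT1G04973 in AT1G12810. Their log2 fold changes in pnet1 ran from 0.14 to 0.75, all above 0, with 3 called higher, and those of the hosts ran from 0.04 to 0.26, all above 0, with 4 called. In OE against WT 4 of the 6 lncRNA genes lay above 0 and 0 were called by edgeR (range -0.28 to 0.57). Of their hosts 1 of 6 lay above 0 (range -0.30 to 0.17), and 1, CCR1, was called at -0.30 (adjusted p = 0.0057). Intron reads of the host cannot be told apart from reads of the lncRNA gene here. Without these 6 genes, 9 called genes were left in pnet1, a count added after seeing the data.

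**Figure D4:**
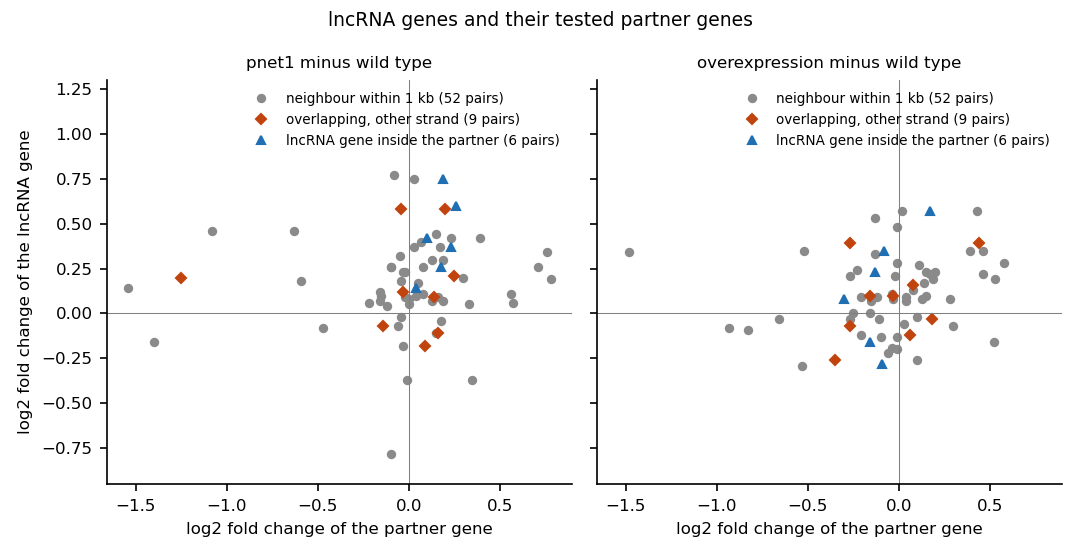
Log2 fold change of each lncRNA gene against that of each tested partner gene, in pnet1 minus wild type and in overexpression minus wild type; grey circles are neighbours within 1000 bases (52 pairs), red diamonds genes overlapping on the other strand (9 pairs), blue triangles hosts that enclose the lncRNA gene (6 pairs). AT1G06957 and AT1G25098 have no tested partner; all 6 triangles lie above 0 on both axes in pnet1.

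Changes of the lncRNA genes and of their partners were weakly related. Over the 15 pairs with a tested gene overlapping on the other strand, Pearson's r was 0.182 and Spearman's rho 0.466 in pnet1, and 0.403 and 0.350 in OE. Over 52 pairs with a gene within 1000 bases, r was 0.0571 and rho 0.109 in pnet1, and 0.175 and 0.250 in OE. These are descriptions across gene pairs that share libraries, with several pairs sharing a gene. The signs were the same in 10 of the 15 and 32 of the 52 pairs in pnet1, and in 7 and 31 in OE. In pnet1 both genes were called in 2 overlapping pairs and 3 neighbouring pairs, each in the same direction. The overlapping pairs were AT2G08435 in AT2G31390 and AT4G25885 in APUM6, where intron reads of the host cannot be told apart from reads of the lncRNA gene. The share over gene pairs in general was not counted, so these counts are a description. Among those 3 neighbouring pairs the partner changed most in that of AT2G23040 and NPY4, a gene for a BTB/POZ protein of auxin-regulated organ formation. Their starts face away from each other 435 bases apart. NPY4 had 71.4, 63.3 and 68.7 CPM in pnet1 libraries, 31.2, 26.4 and 25.5 in OE libraries, and 36.4, 39.5 and 44.0 in WT libraries. Its log2 fold change was 0.76 in pnet1 (adjusted p = 1.2e-05) and -0.53 in OE (adjusted p = 0.0023), beside 0.34 and -0.29 (adjusted p = 0.165) for AT2G23040. The call of AT2G23040 in pnet1 (edgeR adjusted p = 0.045) was lost without any of 6 libraries, as given above. Other neighbours moved with no call in the lncRNA gene, as did PNSB3, a photosynthetic NDH subunit gene 494 bases from AT3G03265, at -1.54 in pnet1 (adjusted p = 2.7e-05).

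Of 16 noncoding RNAs known from the literature, 0 were among the 58. The biotype rule largely fixed this, since 13 of the 15 in the table carry another biotype and neither of the other 2 had enough counts to be tested. Of the 11 that could be tested, 1 was called higher and 2 lower in pnet1 (median -0.04, against 0.00 over all genes), and 0 in OE by edgeR. TAS2, a precursor of trans-acting small RNAs, rose by 0.26 (SE 0.07, adjusted p = 0.013), with 41.6 ± 0.419 CPM in pnet1 and 34.8 ± 3.79 CPM in WT (SD, n = 3 each). AT4, an RNA of the phosphate starvation response, fell by 2.01 (SE 0.20, adjusted p = 6.1e-06), with 55, 29 and 53 counts in pnet1 libraries, 138, 188 and 143 in OE libraries, and 190, 161 and 226 in WT libraries. AT1G67105 fell by 0.86 (SE 0.21, adjusted p = 0.013). The precursors TAS1A, TAS1B, TAS1C and TASIR-ARF (AT3G17185) lay between -0.29 and 0.17 in pnet1 and were not called.

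Of 34 listed genes of small RNA and RNA decay pathways 9 were called higher and 0 lower in pnet1 by edgeR, with a median of 0.09, against 12.6% higher and 17.4% lower over all genes. In OE 0 were higher and 3 lower, with a median of -0.02, against 5.97% and 5.24% over all genes. AGO10, an ARGONAUTE gene of the shoot meristem, had 229 ± 5.68 CPM in pnet1, 171 ± 9.69 in OE and 171 ± 7.47 in WT (SD, n = 3 each), and a log2 fold change of 0.42 (SE 0.05, adjusted p = 8.8e-06) in pnet1. SGS3, which works with RDR6 in making double-stranded RNA, rose by 0.28 (adjusted p = 0.0011) and DCL4, which cuts it, by 0.19 (adjusted p = 0.0057), while RDR6 had 0.12 (adjusted p = 0.104) and AGO7 -0.18 (adjusted p = 0.279). DCL4 was also called in OE, at -0.19 (adjusted p = 0.020). Of 4 listed targets, ARF3, an auxin response factor gene cut by the small RNAs of TAS3, had 0.12 (adjusted p = 0.048) and UBC24, which is also known as PHO2 and acts in phosphate balance, 0.17 (adjusted p = 0.011), both called higher in pnet1, while ARF2 was called lower at -0.13 (adjusted p = 0.031). The lists were drawn up with earlier results of these data known, so their direction is no independent evidence.

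Sequence and position were not used by the rule. The longest frame from ATG to stop on the annotated strand had a median of 162 bases in the joined exons, against 87 in the 3423 other lncRNA rows and 987 in protein-coding rows. The joined exons themselves differed in length, with medians of 1359, 324 and 1552 bases in the same order, and a longer sequence has more room for a frame. A frame of at least 100 codons was present in 8 of the 58 (13.8%), in 2.45% of the other lncRNA rows and in 91.9% of protein-coding rows. The longest, 188 codons, was in AT2G42365, and AT1G06957 had 12 codons. Chromosome 1 held 26 of the 58 genes (44.8%), against 28.2% of all lncRNA rows and 26.1% of protein-coding rows, and chromosome 4 held 4 (6.90%), against 14.7% and 15.2%. In 4 pairs neighbouring members of the set were under 10 kb apart, the closest being AT1G60525 and AT1G60545, with 864 bases between them on opposite strands, and AT1G60505, 2060 bases from AT1G60525. These 3 genes of 1 cluster had log2 fold changes in pnet1 of -0.04, 0.18 and 0.23 in the order AT1G60525, AT1G60545 and AT1G60505, none called. A stretch of at least 100 bases with at least 95% identity elsewhere in the genome was found for 9 of the 58 genes.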

How the data were processed

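The authors deposited raw counts per gene and FPKM per gene for 9 strand-specific mRNA libraries of total RNA from callus. Per the submitters' processing notes, HISAT2 2.0.4, HTSeq 0.6.1p1 and the build TAIR10 were used; the strand setting and annotation release were not stated in what was used here. The deposited FPKM are counts divided by gene length and a constant per library. Columns named pnet1_1 with a further number were read as 1 allele with its replicates.

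Counts of all 9 libraries were fitted together with edgeR 4.0.16 (quasi-likelihood, robust, TMM scaling, R 4.3.3) after its low-count filter (minimum count 10, minimum total 15). Adjusted p-values are Benjamini-Hochberg values over 19698 genes, and a gene was called at an adjusted p under 0.05. Alternatives used DESeq2 1.42.0 and limma 3.58.1. Overlaps and neighbours came from the deposited coordinates. Copies were searched with blastn 2.17.0+ in TAIR10.1 (at least 95% identity over at least 100 bases). Total counts per library, 16890848 to 19493969, set the precision, and counting intervals cover counting error only.

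Named were the 10 genes with the highest FPKM, the called genes with the largest changes and no overlap, the 3 steadiest genes with at least 200 counts in every library, their overlapping or near genes, genes of fixed lists, and genes next to the count minimum. All 16 called genes met this rule. The genes given as examples of position, nesting in a host or clustering that it does not cover were chosen after their values were seen. The members and lists were chosen with earlier results of these data known.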

Additional observations from a re-analysis of the deposited data

How the results depend on the processing

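No result changed direction under the alternatives run. In pnet1 against WT 12 genes were called, and 7 to 13 when 1 library was left out, with 7 without pnet1 replicate 1, pnet1 replicate 2 or WT replicate 2; the other alternatives gave 8 to 12. In OE against WT the 2 calls became 1 under RLE scaling, library totals only, a filter of 50 counts in 3 libraries, the replicate block, a fit of only the 2 groups, DESeq2, limma on log2(FPKM + 0.1) with or without a filter and log2(FPKM + 1), and, added after seeing the data, without genes that have a near-identical copy; leaving out 1 library gave 1 to 2. In OE against pnet1 the 10 calls became 9 to 11 without 1 library. The rule found 111 genes at 20 counts, 32 at 100 counts and 38 at 50 counts in all 9 libraries. Same-numbered libraries deviated with correlations of -0.176 to 0.0768, so the numbers do not pair them, and with the replicate block 10, 1 and 10 genes were called in the 3 comparisons. Under at least 1 alternative, 7 further genes were called in pnet1 against WT, 2 in OE against WT and 9 in OE against pnet1. The cause of these shifts was not tested. Genes near 50 counts have wide errors, and small changes in them were not detectable at this depth.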
